A study of Mus musculus with 2 samples.

Results

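The genes described here are the 10 mouse genes Igll1, Vpreb1, Vpreb2, Vpreb3, Cd79a, Cd79b, Rag1, Rag2, Dntt and Pax5, which build the pre-B cell receptor, recombine the immunoglobulin loci or commit cells to the B lineage. They were chosen by name and found through their Ensembl gene identifiers, and all 10 were among the 43346 Ensembl genes of the deposited tables, with 37 annotated transcripts. The data are total RNA-seq libraries from the liver of healthy B6NCrl mouse embryos at embryonic day 16.5, as 1 group of 2 biological replicates with no second condition, genotype or age. Each replicate was a pool of male and female embryos, of 41 embryos in replicate 2 and of a number that the labels do not give in replicate 1, and both carry the same donor identifier. The RNA was longer than 200 nt, 10 ng of it entered each library, and spike-in RNA was added. Levels are given in TPM, the estimated read count per unit of transcript length, scaled to a fixed sum in each library. With 1 group there was no comparison between conditions, no test was run, and each mean ± SD is over these 2 libraries.

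In mammals, a B cell precursor first joins gene segments of the heavy chain locus with the RAG1 and RAG2 recombinase. The new heavy chain is paired with a surrogate light chain made of the VpreB and lambda 5 proteins and brought to the cell surface with the signalling chains CD79A and CD79B, which forms the pre-B cell receptor. Before birth the liver is a main site of B cell formation in the mouse. The same tissue also holds hepatocytes and many other blood-forming cells.

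The libraries held 44477766 expected counts in replicate 1 and 48820712 in replicate 2, and the 10 genes together took 2494 of them in replicate 1 and 3158 in replicate 2. That was 0.00575% of the counts on Ensembl genes in replicate 1 and 0.00668% in replicate 2. The labelled tissue was checked by its defining genes. Albumin (Alb) stood at 7052 ± 796 TPM and alpha-fetoprotein (Afp), the fetal serum protein, at 13648 ± 27.0 TPM, and the lowest of 6 hepatocyte markers, Serpina1b, at 1212 ± 73.5 TPM. Fetal liver also holds blood-forming cells. The heme synthesis enzyme Alas2 of red cell precursors stood at 1284 ± 65.9 TPM, and the neutrophil protein S100a8 at 3145 ± 54.0 TPM. In bulk tissue, fewer cells of a type and less RNA per cell cannot be told apart.

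Vpreb1 and Vpreb2 are near copies, which decides how far their levels can be separated, so the last 250 bases of their coding sequences are shown, coding bases 180 to 429. They were read from GENCODE M21 transcripts, at chr16:16868596-16868845 on the minus strand for Vpreb1 and at chr16:17980831-17981080 on the plus strand for Vpreb2 (GRCm38). Capitals mark the 6 bases at which they differ in this stretch.
Vpreb1: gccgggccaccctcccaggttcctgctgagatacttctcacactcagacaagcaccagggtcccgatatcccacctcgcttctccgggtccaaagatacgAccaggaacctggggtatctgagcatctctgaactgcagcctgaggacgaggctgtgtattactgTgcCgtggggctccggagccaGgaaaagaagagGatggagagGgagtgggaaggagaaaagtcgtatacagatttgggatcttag
Vpreb2: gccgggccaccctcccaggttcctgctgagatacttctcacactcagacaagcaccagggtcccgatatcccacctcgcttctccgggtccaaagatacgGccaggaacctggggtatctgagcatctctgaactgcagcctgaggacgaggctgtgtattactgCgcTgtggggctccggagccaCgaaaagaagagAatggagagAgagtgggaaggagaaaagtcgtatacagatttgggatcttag
The whole coding sequences had 429 bases each and differed at 9 of them, which is an identity of 97.9%. Counted from 1 at the A of the start codon, with the Vpreb1 base first, the differences were T37C, T39C, T83C, A280G, T345C, C348T, G366C, G378A and G387A. The longest stretch without a difference ran from base 84 to base 279, over 196 bases. Of the 330 windows of 100 bases along the sequence, 97 (29.4%) were identical in both genes. A read wholly within such a window cannot be given to either gene by its sequence.

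**Figure D1:**
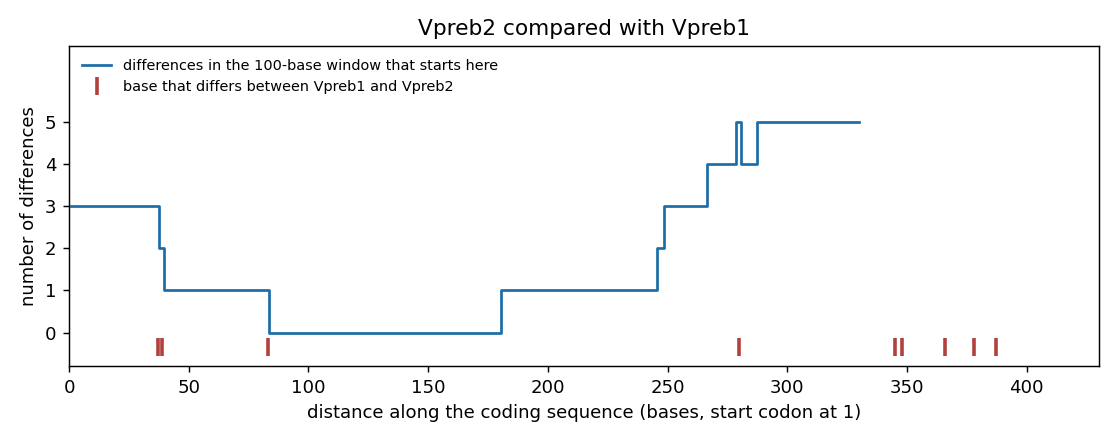
Number of bases at which Vpreb2 differs from Vpreb1 in each window of 100 bases along the coding sequence, by the first base of the window, with the 9 differing bases as red ticks. The line lies at 0 for the 97 identical windows and reaches 5 near the end of the coding sequence.

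Igll1, Vpreb1 and Vpreb3 reached 10 TPM in both libraries. Igll1 encodes lambda 5, the constant part of the surrogate light chain. It lies at chr16:16860671-16863985 on the minus strand and had 569 expected counts in replicate 1 and 702 in replicate 2. Its level was 16.9 TPM in replicate 1 and 19.15 TPM in replicate 2, a mean of 18.0 ± 1.59 TPM. This was the highest of the 10 genes in both libraries, and 80.9% of 21474 protein-coding genes were lower in mean TPM. Its values did not overlap those of Vpreb3, the next gene by level.

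Vpreb1, which encodes the variable-like part of the surrogate light chain, lies beside Igll1 on the same strand at chr16:16868403-16870843, with 4417 bases between the genes. It stood at 10.8 TPM in replicate 1 and 13.3 TPM in replicate 2, a mean of 12.0 ± 1.75 TPM. Of its 1199 exon bases, 108 lie opposite exons of Top3b, which stood at 16.9 TPM in replicate 1 and 19.6 TPM in replicate 2. Vpreb2 encodes almost the same protein part from chr16:17980428-17981273 on the plus strand, 1109584 bases from Vpreb1. It stood at 2.57 TPM in replicate 1 and 2.78 TPM in replicate 2, a mean of 2.68 ± 0.149 TPM. Vpreb1 was the higher copy in both libraries, with 80.8% of the pair's TPM in replicate 1 and 82.7% in replicate 2.

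The expected counts of the pair show the shared reads. Vpreb1 had 304.23 expected counts in replicate 1 and 402.33 in replicate 2, and Vpreb2 had 35.77 in replicate 1 and 41.67 in replicate 2. Neither gene had a whole count within 0.01, and their sums, 340 in replicate 1 and 444 in replicate 2, were whole. The sums left no fractional part for another gene. The summed count of the pair does not depend on how reads were divided between the copies, while the level of each copy does. In TPM the pair summed to 13.4 in replicate 1 and 16.1 in replicate 2. This sum in TPM does depend on the division. Counts are divided by an effective length, which in replicate 1 was 669 nt for Vpreb1 and 330 nt for Vpreb2. The deposited Vpreb2 model was 429 nt long, the length of the coding sequence alone, and the Vpreb1-201 transcript was 766 nt long. In GENCODE M21 the Vpreb2 transcript is 759 nt long and differed from Vpreb1-201 at 20 of 759 aligned bases. How the short model moved reads between the copies was not tested.

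Vpreb3 encodes a VpreB-like protein that binds immunoglobulin chains inside the cell, and it lies at chr10:75943057-75949657 on the plus strand. It had 292 expected counts in replicate 1 and 365 in replicate 2, all on the 625-nt transcript Vpreb3-201. Its level was 13.2 TPM in replicate 1 and 15.3 TPM in replicate 2, a mean of 14.2 ± 1.46 TPM. The ranges of Vpreb3 and Vpreb1 overlapped, so their order was not resolved. Igll1 was 1.26 times the summed level of Vpreb1 and Vpreb2 in replicate 1 and 1.19 times in replicate 2, a ratio of 1.23 ± 0.0506 in TPM. That ratio depends on how reads were divided between Vpreb1 and Vpreb2, and the SD does not cover this.

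Cd79a and Cd79b encode the paired signalling chains of the pre-B and B cell receptors and were close to equal in level. Cd79a (chr7:24897381-24902197, plus strand) had 529 expected counts and 9.25 TPM in replicate 1, and 750 and 12.1 TPM in replicate 2. Cd79b (chr11:106311341-106314762, minus strand) had 461 expected counts and 9.95 TPM in replicate 1, and 540 and 10.7 TPM in replicate 2. The means were 10.7 ± 2.04 TPM for Cd79a and 10.3 ± 0.537 TPM for Cd79b. Cd79b was higher in replicate 1 and Cd79a in replicate 2, so the ratio of Cd79a to Cd79b was 0.930 in replicate 1 and 1.13 in replicate 2. The ranges of Cd79a and Cd79b overlapped, so neither was set above the other, and both were above Vpreb2 in each library.

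Rag1 and Rag2 lie as neighbours on chromosome 2 with their 3′ ends facing each other and 5752 bases between them. Rag1, at chr2:101638282-101649501 on the minus strand, encodes the subunit that cuts DNA. It had 174 expected counts in replicate 1, with an exact 95% Poisson interval of 149 to 202, and 217 in replicate 2, with an interval of 189 to 248. Its level was 0.63 TPM in replicate 1 and 0.73 TPM in replicate 2. Rag2, at chr2:101624718-101632529 on the plus strand, encodes the partner subunit, which binds a histone mark. It had 115 expected counts in replicate 1 (95% interval 94.9 to 138) and 117 in replicate 2 (96.8 to 140), or 1.03 TPM in replicate 1 and 1.02 TPM in replicate 2. Rag2 was the higher gene per unit of length in both libraries, and the ratio of Rag1 to Rag2 was 0.664 ± 0.0736 in TPM. The order turned for counts that were not divided by length, with a ratio of 1.68, since the Rag1 transcript is 6608 nt long. Both genes share exon bases with the annotated gene B230118H07Rik, which stood at 11.8 TPM in replicate 1 and 11.1 TPM in replicate 2. The overlap is 80 of 6608 exon bases of Rag1, on the same strand, and 208 of 3424 of Rag2, on the opposite strand. No label states that strand was kept, so reads over the Rag2 overlap cannot be told apart by strand. Strand could not separate the Rag1 overlap in any case. B230118H07Rik had 383 expected counts in replicate 1 and 376 in replicate 2. These counts and those of Rag1 and Rag2 were whole in both libraries, so they show no divided reads.

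Dntt encodes terminal transferase, which adds bases without a template at the joints of gene segments. In the mouse it is known for being little expressed in B cell precursors before birth. It lies at chr19:41029275-41059525 on the plus strand and had 0 expected counts in replicate 1 and 2 in replicate 2, where the 95% Poisson interval was 0.242 to 7.22. In replicate 1 the interval reached 3.69 counts, and the deposited interval of the level reached 0.0561 TPM. The level of 3 counts, drawn as the limit for a count of 0, was 0.0357 TPM in replicate 1. Dntt was therefore at or near the limit of detection in both libraries, below Rag1, Rag2 and Pax5 in each.

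Pax5 encodes the transcription factor that holds cells in the B lineage, and it lies at chr4:44524757-44710487 on the minus strand with 20 annotated transcripts. It had 14 expected counts in replicate 1 (95% Poisson interval 7.65 to 23.5) and 21.4 in replicate 2 (13.3 to 32.6). These gave 0.29 TPM in replicate 1 and 0.45 TPM in replicate 2. The deposited posterior mean, a second estimate of the same level, was 1.28 TPM in replicate 1 and 1.37 TPM in replicate 2, above Rag2. The TPM of Pax5 lay outside its own deposited interval in both libraries, which held for 2.64% of 16258 genes averaging at least 10 expected counts. In replicate 1, 17 of the 20 transcripts had no counts and held 0.98 of the posterior mean of 1.27 TPM summed over transcripts. In replicate 2, 16 had none and held 1.13 of 1.37 TPM. Among genes averaging 10 to 30 expected counts, 11 had 15 or more transcripts, Pax5 among them. Their median ratio of posterior mean to TPM was 2.98, against 1.05 for 1177 genes with a single transcript. Whether the number of transcripts raised the posterior mean of Pax5 was not tested. The place of Pax5 below Rag1 thus holds for the TPM and not for the posterior mean. Pax5 also shares 636 exon bases with 5730488B01Rik on the opposite strand, which had 9.59 expected counts in replicate 2, and the counts of both genes there summed to the whole number 31. In replicate 1 both counts were whole, so their sum shows nothing of shared reads.

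**Figure D2:**
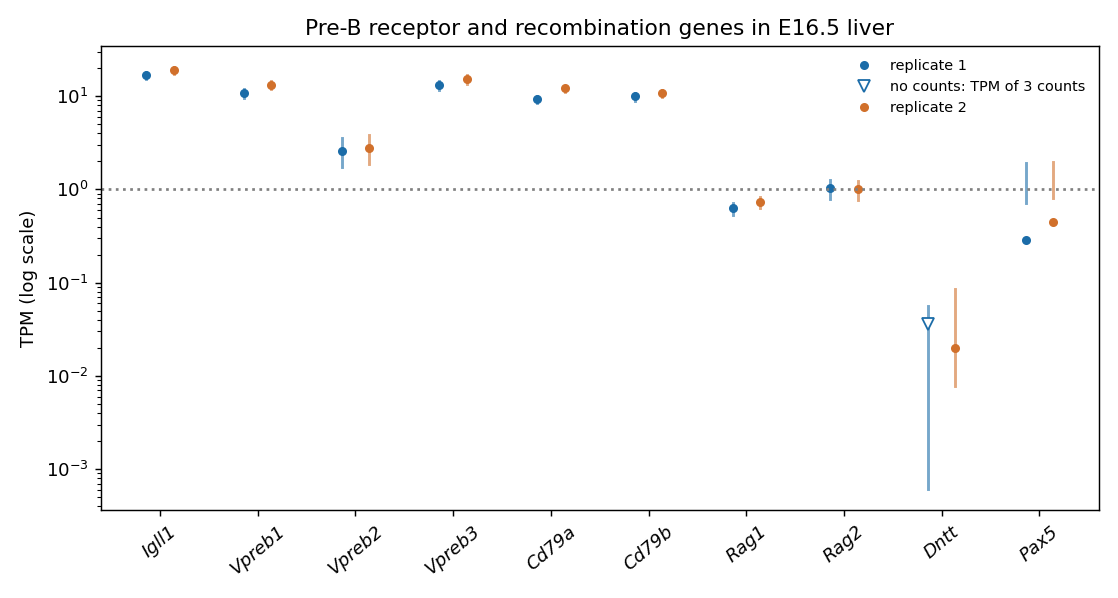
TPM of the 10 genes on a log scale in replicate 1 (blue) and replicate 2 (orange), with vertical lines for the deposited intervals, whose level is not stated, and a dotted line at 1 TPM. Igll1, Vpreb1, Vpreb3, Cd79a and Cd79b lie near 10 TPM, Vpreb2, Rag1, Rag2 and Pax5 between 0.29 and 2.78 TPM, and the open triangle marks the limit of 0.0357 TPM for Dntt in replicate 1.

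By mean TPM the order was Igll1, Vpreb3, Vpreb1, Cd79a, Cd79b, Vpreb2, Rag2, Rag1, Pax5 and Dntt. Neighbours whose 2 libraries overlapped were Vpreb3 and Vpreb1, Vpreb1 and Cd79a, and Cd79a and Cd79b. The other neighbours did not overlap. With 1 TPM required in both libraries, 7 of the 10 genes (70.0%) were counted as detected, against 27.9% of all Ensembl genes and 52.2% of protein-coding genes. The 3 genes below were Rag1, Dntt and Pax5. At 10 TPM or more, 3 of the 10 were counted, against 26.4% of protein-coding genes. Rag2 was the member closest to the threshold of 1 TPM.

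The transcript tables divide each gene's level among annotated transcripts. Igll1 was divided among 3, of which Igll1-201, 870 nt long, held 52.7% of the gene's TPM in replicate 1 and 62.7% in replicate 2. A 702-nt transcript that M21 no longer lists held 39.9% in replicate 1 and 30.7% in replicate 2. The third, 2161 nt long, had 109 expected counts in replicate 1 and 120 in replicate 2 and held 7.46% of the TPM in replicate 1 and 6.68% in replicate 2. Vpreb1-201 held 96.7% of Vpreb1 in replicate 1 and 97.6% in replicate 2. For Cd79b, the 1195-nt transcript Cd79b-202 held 98.1% in replicate 1 and 94.8% in replicate 2, and the 1431-nt Cd79b-201 the rest. These genes had the same leading transcript in both libraries.

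Rag2 and Pax5 did not. Rag2-201 (3424 nt) led in replicate 1 with 57.3% of the gene, and Rag2-202 (1857 nt) in replicate 2 with 51.0%. This was a split near equality rather than a switch, as Rag2-201 still held 49.0% in replicate 2. Pax5-201 led in replicate 1 with 69.0%, and Pax5-213 in replicate 2 with 54.3%. Pax5-201 had 12.8 expected counts in replicate 1 and none in replicate 2, so the shares of Pax5 rest on very few reads.

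**Figure D3:**
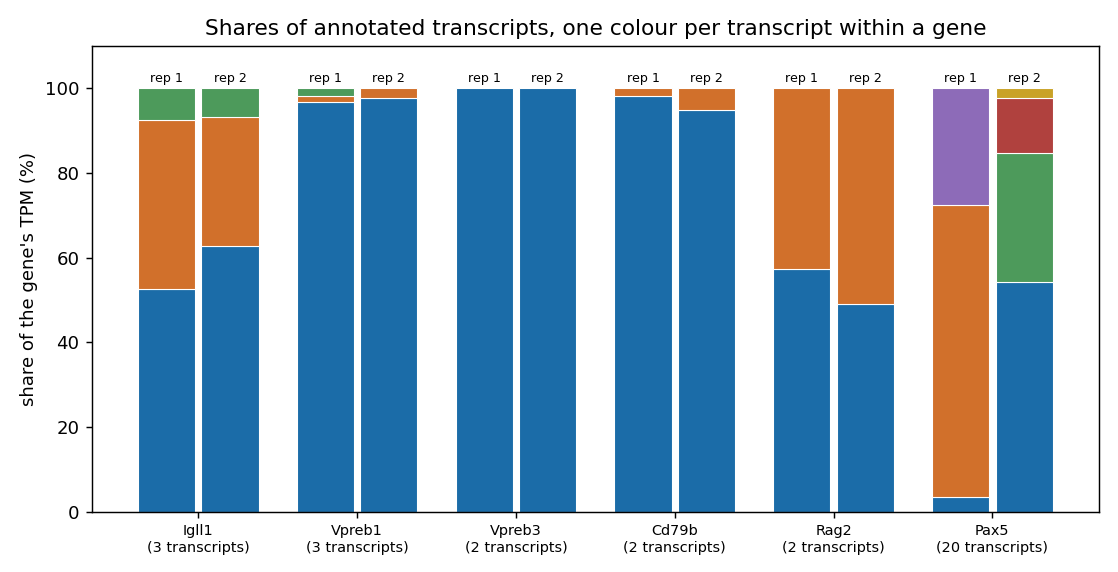
Share of each gene's TPM (%) held by its annotated transcripts in replicate 1 and replicate 2 for the 6 genes with more than 1 transcript and a share in both libraries, each colour standing for the same transcript within a gene. Vpreb1, Vpreb3 and Cd79b were led by 1 transcript at 94.8% or more in both libraries, Igll1 and Rag2 were divided, and Pax5 had different leaders in the libraries.

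Promoter sequences were read from RefSeq (GRCm38.p6), from 250 bases before to 50 after the annotated start, and 9 of the 10 genes had an entry. Cd79b had none. They were searched on both strands for the E-box CAGGTG, the letters known to be bound by E2A, the product of Tcf3, for the octamer ATGCAAAT, bound by OCT factors, and for a palindrome bound by EBF1, which is TCCC and GGGA with any 2 bases between them. Promoters of 3 genes are shown, with matches in capitals, for Igll1 at chr16:16863936-16864235 (minus strand), Cd79a at chr7:24897247-24897546 (plus strand) and Vpreb3 at chr10:75948050-75948349 (plus strand).
Igll1: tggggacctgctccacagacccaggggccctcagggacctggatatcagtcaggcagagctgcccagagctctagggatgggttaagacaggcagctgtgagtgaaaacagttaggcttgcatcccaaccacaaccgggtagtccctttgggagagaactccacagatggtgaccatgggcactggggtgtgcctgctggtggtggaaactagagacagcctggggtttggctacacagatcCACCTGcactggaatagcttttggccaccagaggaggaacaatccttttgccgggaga
Cd79a: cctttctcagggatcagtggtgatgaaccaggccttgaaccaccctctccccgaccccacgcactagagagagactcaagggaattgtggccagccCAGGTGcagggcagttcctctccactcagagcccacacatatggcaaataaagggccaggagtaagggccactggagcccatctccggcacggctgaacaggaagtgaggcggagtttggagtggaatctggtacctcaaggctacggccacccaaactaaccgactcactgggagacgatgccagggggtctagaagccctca
Vpreb3: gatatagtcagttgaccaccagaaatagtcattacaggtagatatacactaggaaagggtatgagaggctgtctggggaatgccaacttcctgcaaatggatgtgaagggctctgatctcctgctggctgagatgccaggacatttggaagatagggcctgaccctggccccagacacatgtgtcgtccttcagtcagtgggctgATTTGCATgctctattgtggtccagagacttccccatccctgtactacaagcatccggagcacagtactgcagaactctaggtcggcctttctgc
The E-box was in 5 of the 9 promoters, those of Igll1, Vpreb1, Vpreb2, Cd79a and Rag1, against 20.2% of 32851 mouse promoters of the same length. It began 8 bases before the start in Igll1, where it reads CACCTG on the strand of the gene, and 154 bases before it in Cd79a. Vpreb1 and Vpreb2 are near copies and are not independent cases. The start used for Vpreb2 is the first base of its start codon, at chr16:17980565, while M21 begins the gene at chr16:17980428. Its window therefore also holds bases that M21 places within the gene. This is not particular to Vpreb2. The windows of Vpreb3 and of Vpreb1 (chr16:16869206-16869505) lie wholly within the M21 spans of their genes. Part of the bases before the start of Cd79a lie within its M21 span. The octamer was in 1 of the 9, Vpreb3, where it reads ATTTGCAT from 45 bases before the start, against 1.74% of all promoters. The EBF1 palindrome was in 0 of the 9 and in 0.904% of all promoters. Only its exact letters were counted, so a site that departs from them would be missed. The 0 therefore does not show that these promoters lack EBF1 sites. The motifs were chosen with the promoters in view, so these shares are no test of enrichment. A match is a description of letters and no evidence of binding in these livers.

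The partners of the pre-B cell receptor were read next. Ighm, the constant region of the mu heavy chain that pairs with the surrogate light chain, stood at 13.3 TPM in replicate 1 and 16.0 TPM in replicate 2, within the span of Igll1, Vpreb1 and Vpreb3. It was the 1 of 8 heavy chain constant genes to reach 1 TPM in both libraries. Ighd, which marks later B cells, stood at 0.29 TPM in replicate 1 and 0.23 TPM in replicate 2, and 3 of the 8, with the IgE gene Ighe among them, had no counts in either library. The kappa light chain gene Igkc, which takes the place of the surrogate light chain at a later stage, had 21 expected counts in replicate 1 and 45 in replicate 2, or 2.23 TPM in replicate 1 and 4.42 TPM in replicate 2. Both libraries thus held more Igll1 than Igkc per unit of length. The lambda gene Iglc2 had no counts in either library. Of 4 light chain constant genes listed, only Igkc and Iglc2 were found, so other lambda constant genes were not read.

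Of 16 genes of pre-B cell receptor signalling, 13 reached 1 TPM in both libraries. The list median was 5.59 TPM in replicate 1 and 6.22 TPM in replicate 2. Over all protein-coding genes 52.2% reached 1 TPM in both, the share to set beside the counts of this and the other lists. The highest were the phosphatase Ptpn6 at 33.7 ± 0.0636 TPM, the kinase Lyn at 18.4 ± 0.820 TPM and the adaptor Pik3ap1 at 14.2 ± 1.43 TPM, which other blood cells also express. The adaptor Blnk, which links the receptor to its downstream enzymes in B lineage cells, was lower, at 1.58 TPM in replicate 1 and 2.04 TPM in replicate 2.

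Of 21 B lineage transcription factors and their inhibitors, Pax5 not included, 18 reached 1 TPM in both libraries. The highest were Id2, an inhibitor of E proteins, at 113 ± 9.32 TPM, the E protein gene Tcf3 at 36.8 ± 2.58 TPM, the inhibitor Id3 at 34.2 ± 1.70 TPM and Ikzf1, which encodes Ikaros, at 29.8 ± 1.27 TPM. These factors act in many cell types. Ebf1, which specifies the B lineage, stood at 1.96 TPM in replicate 1 and 2.44 TPM in replicate 2, above Pax5 by TPM in both. Foxo1, an activator of the Rag genes in B cell precursors, stood at 1.33 TPM in replicate 1 and 1.89 TPM in replicate 2. Ikzf3, which encodes Aiolos, was lowest at 0.17 TPM in both.

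Of 14 receptors and surface proteins of early B cells, 12 reached 1 TPM in both libraries. Cd24a, which red cell precursors also carry, stood at 816 ± 1.38 TPM, Cd38 at 14.6 ± 0.813 TPM and the stem cell factor receptor Kit at 12.7 ± 0.219 TPM. Flt3, a receptor of early progenitors, stood at 1.23 TPM in replicate 1 and 1.37 TPM in replicate 2. Il7r, the receptor for the cytokine that mouse B cell precursors need, stood at 0.70 TPM in replicate 1 and 0.83 TPM in replicate 2. It was above Rag1 in each library, though the ranges of the genes overlapped. Il2ra was lowest at 0.01 TPM in both.

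Genes of mature B cells were mostly low. Of 15, 4 reached 1 TPM in both libraries, and the list median was 0.11 TPM in replicate 1 and 0.15 TPM in replicate 2, against 1.41 and 1.57 TPM over all protein-coding genes. The highest were Cd74 at 10.1 ± 0.240 TPM and H2-Aa at 3.93 ± 0.255 TPM, of antigen presentation, which macrophages and dendritic cells share, and Mzb1 at 6.87 TPM in replicate 1 and 8.02 TPM in replicate 2. Ms4a1, which encodes the B cell antigen CD20, had 8 expected counts in replicate 1 and 13 in replicate 2, and Fcmr, the receptor for IgM, had none.

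Recombination also needs proteins that other cells use as well. All 4 cofactors of the recombinase that were found, of 5 listed, were above 20 TPM, led by the DNA-bending proteins Hmgb1 at 364 ± 37.4 TPM and Hmgb2 at 181 ± 29.4 TPM. Of 13 end joining genes, 12 reached 1 TPM in both libraries. The histone gene H2afx was highest at 180 ± 14.2 TPM, followed by the Ku subunit gene Xrcc6 at 33.1 ± 1.37 TPM and Trp53bp1 at 18.4 ± 2.33 TPM. The kinase gene Prkdc stood at 2.88 TPM in replicate 1 and 2.90 TPM in replicate 2. The ligase gene Lig4 was lowest at 0.79 TPM in replicate 1 and 0.80 TPM in replicate 2, between Rag1 and Rag2 in level in both libraries.

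**Figure D4:**
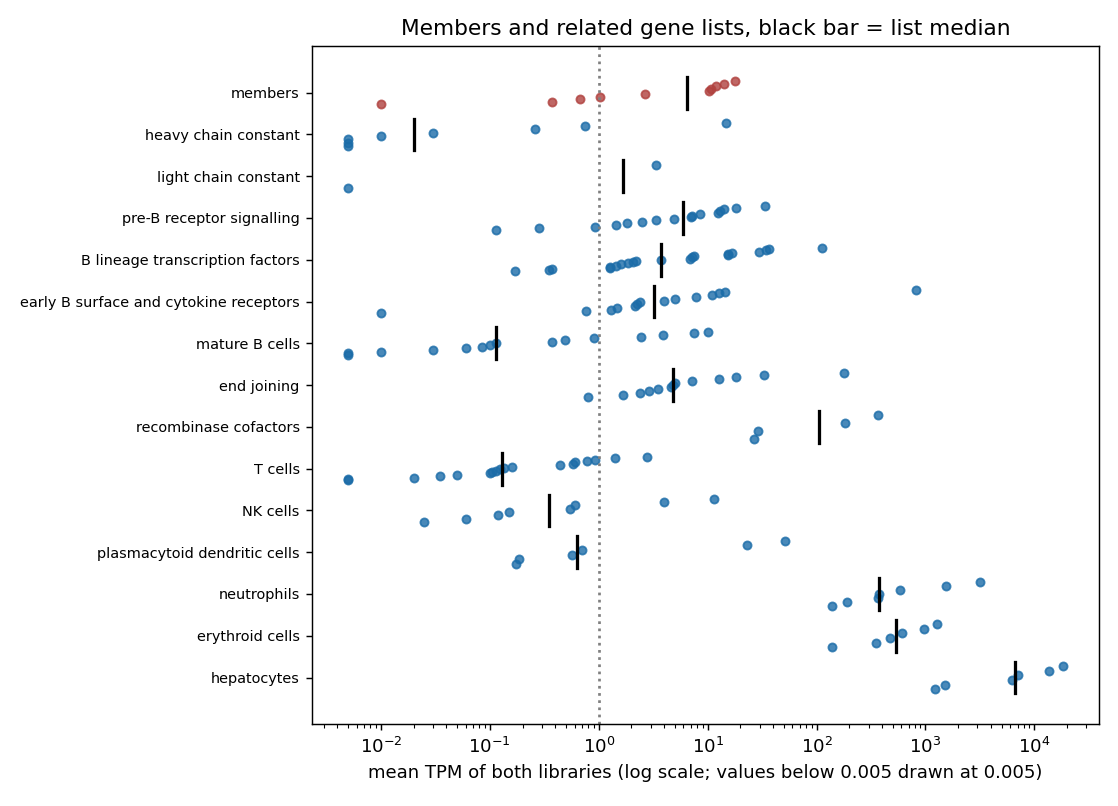
Mean TPM of both libraries on a log scale for the 10 genes (red) and for each gene of 14 related lists (blue), with a black bar at the median of these means and a dotted line at 1 TPM. The mature B and T cell lists lie mostly below 1 TPM, while the neutrophil, erythroid and hepatocyte lists lie above 100 TPM.

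Cells of related lineages, some of which use the Rag genes as well, were read by their markers. Of 18 T cell genes, 2 reached 1 TPM in both libraries, and the list summed to 7.88 TPM in replicate 1 and 8.84 TPM in replicate 2. The kinase gene Lck stood at 2.80 TPM in replicate 1 and 2.71 TPM in replicate 2. Trbc2 stood at 1.34 TPM in replicate 1 and 1.50 TPM in replicate 2. The lowest, Cd3e, was the 1 gene of the 18 with no counts in either library. Cd3g had 11 expected counts in replicate 1 and 16 in replicate 2, and Cd3d had 7 in each. Of 8 natural killer cell genes, 2 were counted, with a list sum of 16.5 TPM in replicate 1 and 17.5 TPM in replicate 2. Most of that sum was Nkg7, at 12.0 TPM in replicate 1 and 11.0 TPM in replicate 2, followed by Gzma, at 2.96 TPM in replicate 1 and 4.94 TPM in replicate 2. The other 6 were below 1 TPM in both, among them the receptor gene Klrb1c at 0.53 TPM in replicate 1 and 0.67 TPM in replicate 2, the receptor gene Ncr1, which had 9 counts in replicate 1 and 5 in replicate 2, and the factor gene Eomes, which had 7 in replicate 1 and 0 in replicate 2. Of 6 plasmacytoid dendritic cell genes, 2 were counted, and their sum was 70.5 TPM in replicate 1 and 81.0 TPM in replicate 2, mostly Ly6c2 and Bst2, which other blood cells share. The defining gene Siglech stood at 0.63 TPM in replicate 1 and 0.78 TPM in replicate 2. The part of these cells in the levels of Rag1 and Rag2 was not tested.

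The replicates were compared on the log2 scale, as TPM + 1 of replicate 2 divided by that of replicate 1, less the value of the median gene. None of the 10 genes differed 2-fold or more, against 0.597% of 16258 genes averaging at least 10 expected counts. The ratios lay between -0.03 for Rag2 and 0.34 for Cd79a with a median of 0.11, where 5% of the 16258 genes were below -0.26 and 5% above 0.35. After centring, 9 of the 10 were higher in replicate 2, against 51.8% of those genes, and in the values as deposited 9 were higher, against 55.9%. Without Dntt, which had too few counts for that filter, 8 of 9 were higher after centring. Of the 7 genes with 100 or more counts, 6 were higher, against 58.9% of 4081 genes in the same range of counts. The 10 genes share their libraries and partly their cells, so they are not 10 independent cases. A pseudocount of 1 shrinks the ratios of Rag1, Rag2, Dntt and Pax5 towards 0. Cd79a was 1.31 times as high in replicate 2 as in replicate 1 in TPM, and it was the 1 gene of the 10 whose deposited intervals did not overlap, 11.2 to 12.9 TPM in replicate 2 and 8.37 to 9.93 TPM in replicate 1, against 20.6% of genes. Scaled to the spike-ins instead, which moved the median gene by -0.29, 3 of the 10 were higher in replicate 2. These were Cd79a and Dntt, both at 0.03, and Pax5 at 0.07, and the latter 2 had few counts. All 10 lay above the median gene in that setting. For Rag1, Rag2, Dntt and Pax5 the pseudocount pulls the ratio towards 0 and so above that median, so their place there is not informative.

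**Figure D5:**
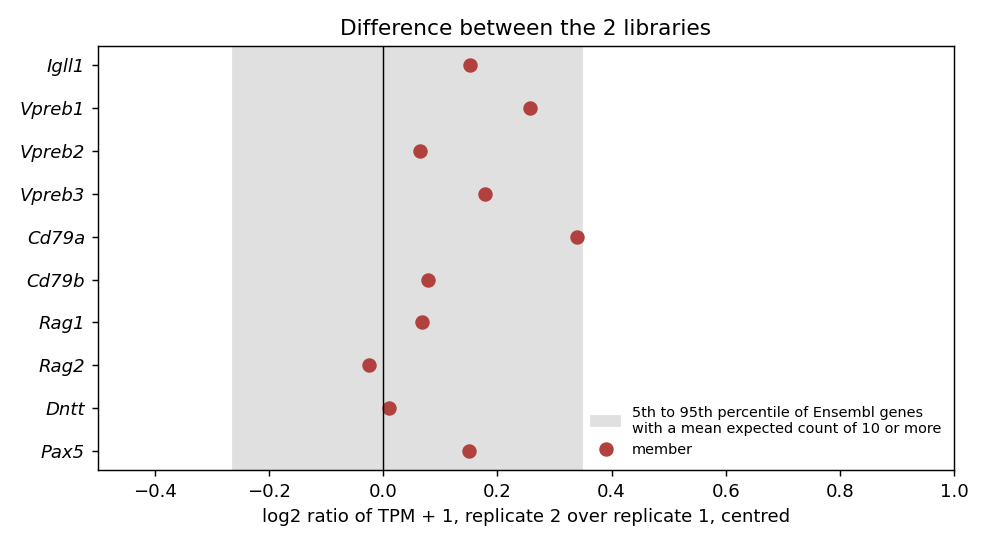
Centred log2 ratio of TPM + 1 between the libraries (above 0 where replicate 2 was higher) for the 10 genes, with a grey band from -0.26 to 0.35 that holds the middle of the ratios of 16258 Ensembl genes averaging at least 10 expected counts. All 10 genes lie within the band, 9 of them to the right of 0 and Cd79a near its upper edge.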

How the data were processed

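Total RNA of E16.5 mouse liver was sequenced in 2 libraries. Per the file headers and the text beside the tables, the authors quantified genes and transcripts on mm10 with GENCODE M4. The column names are those of RSEM. The aligner and program versions are not given in the sources used here. In the deposited tables, expected counts are estimated, since reads that fit several transcripts are divided, and can be fractions. The deposited TPM values are scaled over all rows, spike-ins included. The deposited FPKM values were not used. Transcript shares in percent are deposited as well and were computed again here from TPM (largest difference 0.67 points). Other deposited columns give interval bounds of TPM with no stated level.

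Symbols and coordinates came from GENCODE M21 (GRCm38), matched without ID version. Of 43346 Ensembl genes, 42462 matched and 884 did not. A gene counted as detected at 1 TPM or more in both libraries. Ratios between libraries used log2(TPM + 1), centred on genes averaging at least 100 expected counts. Counts within 0.01 were called whole. Poisson intervals (95%) and the limit of 3 counts cover counting error only, since reads carried no molecular identifiers. The labels call the libraries biological replicates.

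Alternatives comprised thresholds of 0.5 and 2 TPM, a pseudocount of 0.1, posterior mean TPM, TPM rescaled over nuclear genes without globins, TMM factors (edgeR 4.0.16) and size factors (DESeq2 1.42.0, R 4.3.3) on rounded expected counts, spike-in scaling and each library alone. Chosen after the data were seen were the sum of Vpreb1 and Vpreb2 and a filter of 10 counts. The library comparison was tested on simulated data. Python 3.11.15 with numpy 2.4.6, pandas 2.3.3, scipy 1.17.1, matplotlib 3.10.9 and biopython 1.88 was used.

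The genes and lists were chosen with earlier results of these data known, and the motifs with the promoters in view. All 10 genes are named. Of each other list the 3 highest and the lowest are named in general, and always Ebf1, Tcf3, Foxo1, Ikzf1, Il7r, Flt3, Blnk, Ighm, Igkc, Ms4a1, Lig4 and Prkdc. No genes of like pattern are named, as 2 libraries give none. Some genes that the rule selects are not reported here, and the counts and medians of their lists include them.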

Additional observations from a re-analysis of the deposited data

How the results depend on the processing

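Dividing by length was the choice that moved the ratios between genes. With expected counts not divided by length, Cd79a was 1.27 times Cd79b (1.03 in TPM), Igll1 was 1.63 times Vpreb1 plus Vpreb2 (1.23 in TPM), the share of Vpreb1 in the pair was 90.0% (81.7% in TPM), and Rag1 was 1.68 times Rag2 (0.664 in TPM), so that the order of Rag1 and Rag2 turned. Of the 10 genes, 8 were detected at 0.5 TPM, 6 at 2 TPM, 8 by posterior mean TPM, 8 by TPM rescaled over nuclear genes without globins, and 7 in either library alone. The rescaling raised all levels alike, with Igll1 at 30.7 TPM and Rag1 at 1.16 TPM. The posterior mean put Pax5 at 1.33 TPM (0.37 by TPM), and the cause was not tested. The median ratio between libraries over the 10 genes was 0.18 with a pseudocount of 0.1, 0.14 with TMM factors, 0.13 with DESeq2 size factors and -0.10 with spike-in scaling. No paired analysis was possible because the labels give 1 group. Depth limits Dntt, Pax5 and Ms4a1, which had under 30 expected counts in each library.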

Other observations

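The annotated immunoglobulin gene segments held few reads, and rearranged and unrearranged transcripts cannot be told apart in these counts. The 113 heavy chain variable genes (Ighv) found in the tables held 25 expected counts in replicate 1 and 42 in replicate 2 in all, 81 of them had none in either library, and none had 3 or more in both. The most abundant, Ighv8-6, had 2 counts in replicate 1 and 3 in replicate 2. The 97 kappa variable genes (Igkv) held 7 counts in replicate 1 and 12 in replicate 2, and the 3 lambda variable genes (Iglv) none. Over the same libraries Ighm held 878 counts in replicate 1 and 1147 in replicate 2. The 17 heavy chain diversity segments (median length 17 nt) and the 4 heavy chain joining segments (52 nt) are shorter than the 99 nt by which the tables' effective lengths fall short of the transcript lengths, so they could hold no counts. Reads across a joint of rearranged segments match no annotated transcript, and the part of such reads in the low counts was not tested. Among T cell receptor segments, 21 Trbv genes held 10 counts in replicate 1 and 6 in replicate 2, and 98 Trav genes held 1 in replicate 1 and 10 in replicate 2.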
